A study of Mus musculus with 6 samples.

Results

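The C-type lectin and TREM receptors described here are 10 genes of 54838 in the tables, taken by name and matched to Ensembl identifiers through GENCODE M21. They are Clec4e, Clec4d, Clec4n, Clec7a, Clec5a, Clec4a2, Trem1, Trem2, Trem3 and the adaptor gene Tyrobp. Their RNA was measured by sequencing of neutrophils that were sorted from the infected corneas of mice, at 24 h of infection with Pseudomonas aeruginosa PAO1, a widely used laboratory strain of this bacterium. The groups were 3 libraries from wild-type mice and 3 from IL1a -/- mice, which lack the gene of the cytokine IL-1 alpha, and both groups were infected. Replicates are numbered as biological in the labels, which give no animal, strain, age or pooling, and the p-values below therefore measure only how these libraries vary. The question is how loss of IL-1 alpha bears on gene expression of the neutrophils.

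Both receptor families sit on myeloid cells and sense microbial or damaged-cell material. Most of them have no signalling tail of their own and pair with an adaptor that carries the activation motif called ITAM. The TREM receptors and Clec5a pair with Tyrobp (also called DAP12), whereas Clec4e (Mincle), Clec4d (MCL) and Clec4n (Dectin-2) pair with Fcer1g. Clec7a (Dectin-1), the beta-glucan receptor, carries its own shortened motif, and Clec4a2 (DCIR) carries an inhibitory motif. Activating members signal through the kinase Syk to the CARD9, BCL10 and MALT1 complex and onwards to inflammatory gene expression, and Trem1 is known as an amplifier of neutrophil responses.

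The libraries held 22855676 to 33626008 gene counts each. Il1a, the deleted gene, was at 5116 to 8776 CPM (counts per 1000000 counts of the TMM-adjusted library size) in wild-type libraries and 2.89 to 5.37 CPM in knockout libraries, as the labels state. All 10 neutrophil markers had counts in every library, and their summed level was 34300 to 41200 CPM. Of 8 T and NK cell markers, 6 were at 0 in all libraries, and the summed B cell markers did not exceed 0.493 CPM. On the first principal component of log2 CPM, knockout replicate 2 was at 67.3 against -32.9 to 2.10 for the other libraries.

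RefSeq promoter sequences (build GRCm38.p6) were at hand for 7 of the 10 genes. The 4 shown here belong to the most abundant receptor gene of each cluster described below (Clec4e and Trem1), to the neighbour of Clec4e (Clec4d), and to the least abundant gene (Trem2). Each is the 250 bases before the RefSeq start, read 5′ to 3′ on the strand of the gene. Capitals mark GAGGAA on either strand, the core recognised by PU.1, the transcription factor that specifies myeloid cells.
Clec4e, minus strand, chr6:123289872-123290121: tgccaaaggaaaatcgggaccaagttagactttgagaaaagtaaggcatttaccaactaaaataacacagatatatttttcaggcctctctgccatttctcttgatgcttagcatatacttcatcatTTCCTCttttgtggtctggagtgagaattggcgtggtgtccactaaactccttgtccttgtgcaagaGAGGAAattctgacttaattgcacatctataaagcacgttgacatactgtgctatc
Clec4d, plus strand, chr6:123261857-123262106: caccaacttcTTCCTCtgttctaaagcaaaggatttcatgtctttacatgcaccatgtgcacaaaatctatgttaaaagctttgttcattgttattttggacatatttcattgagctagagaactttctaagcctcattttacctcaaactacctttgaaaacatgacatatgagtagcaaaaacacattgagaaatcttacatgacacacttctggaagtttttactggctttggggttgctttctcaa
Trem1, plus strand, chr17:48232489-48232738: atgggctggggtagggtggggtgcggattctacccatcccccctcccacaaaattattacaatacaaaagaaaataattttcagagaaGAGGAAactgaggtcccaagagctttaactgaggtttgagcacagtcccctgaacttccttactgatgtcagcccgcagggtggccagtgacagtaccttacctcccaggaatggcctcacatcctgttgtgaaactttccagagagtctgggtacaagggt
Trem2, plus strand, chr17:48346151-48346400: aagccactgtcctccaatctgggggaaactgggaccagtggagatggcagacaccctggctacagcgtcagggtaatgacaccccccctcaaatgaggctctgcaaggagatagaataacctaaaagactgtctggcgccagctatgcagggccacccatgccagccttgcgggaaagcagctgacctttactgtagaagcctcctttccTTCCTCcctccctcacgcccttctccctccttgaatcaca

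Clec4e had 2 matches, at 123 and 56 bases before the start, and Clec4d had 1 at 240 bases. Trem1 had 1 match at 162 bases and Trem2 had 1 at 40 bases. Of the promoters at hand but not shown, Clec5a had 2 matches, Clec7a 1 in each window and Clec4a2 0. The match is present both in the promoter of the most abundant receptor gene and in that of the least abundant gene, and 23.3% of all 32851 promoter windows of the same length hold it. Letter patterns for the transcription factors C/EBP, AP-1 and NF-kB and for the TATA box were searched as well. The C/EBP pattern matched only in Clec4e (9.56% of all windows) and the AP-1 pattern only in Trem2 (6.75%). The TATA box matched in Clec4e, Clec5a and Clec4a2 (12.4%), and the NF-kB-type pattern had 0 matches (45.8%). A match describes letters and is not a measured site.

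Levels between genes can be compared only per length, as CPM per kilobase of merged exons. On that scale the 10 genes ranged from 0.0763 to 1719 CPM per kilobase in these neutrophils. Tyrobp stood highest at 1719 ± 124 CPM per kilobase (SD over 6 libraries), rank 30 of the tested protein-coding genes. Clec4e followed at 1148 ± 85.4, Trem1 at 610 ± 38.0 and Clec4d at 549 ± 41.2 CPM per kilobase. Clec4n was at 183 ± 19.4, Trem3 at 144 ± 13.9, Clec7a at 117 ± 9.85 and Clec5a at 112 ± 11.5 CPM per kilobase. These 8 genes all lay at or above the 96.4th percentile of tested protein-coding genes. The inhibitory receptor gene Clec4a2 was at 3.16 ± 0.833 CPM per kilobase, which is the 63.3rd percentile, and Trem2 at 0.0763 ± 0.0721 CPM per kilobase.

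**Figure D1:**
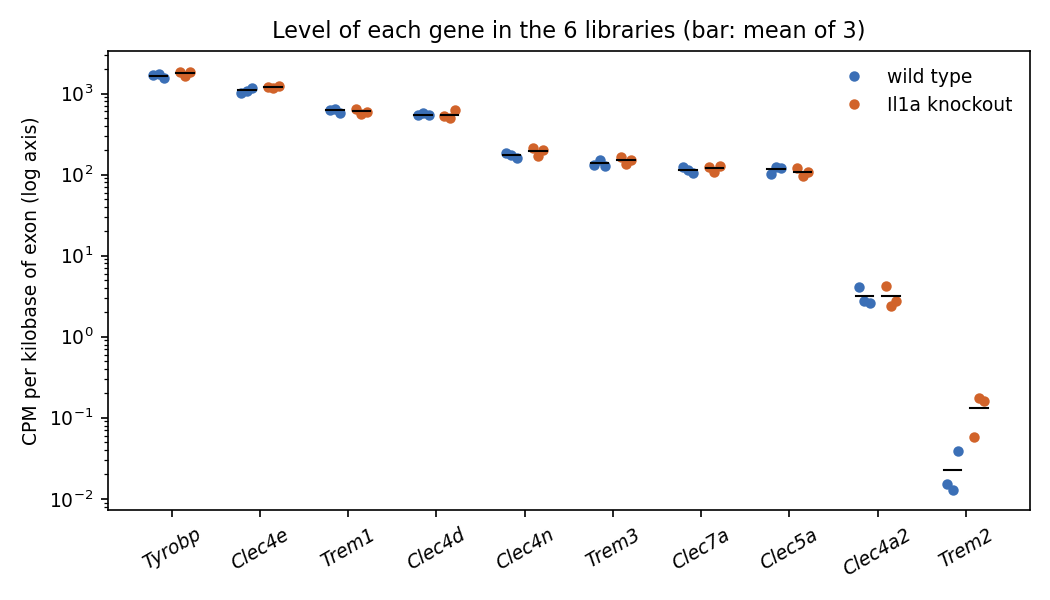
CPM per kilobase of merged exons (log axis) for each of the 10 genes, ordered by mean level; each point is 1 library, blue for wild type and orange for Il1a knockout, and bars are means of 3 libraries. Of the 10 genes, Trem2 is the one whose groups separate, at a level far below the other 9.

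Some neighbours in this order did not separate. Trem1 exceeded Clec4d in 5 of 6 libraries, their ranges overlapped, and the order turned when the longest transcript was used as the length (Trem1 at 611 and Clec4d at 664 CPM per kilobase). Clec7a exceeded Clec5a in 4 of 6 libraries with overlapping ranges. Clec4n exceeded Trem3 in all 6 libraries although their ranges over libraries overlapped. The other neighbours did not overlap, and the gap from Clec5a down to Clec4a2 was 35.4-fold.

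Of the 9 genes that passed the expression filter, 0 passed an adjusted p of 0.05 in the comparison of genotypes (edgeR quasi-likelihood test), where 0.101% of all 11924 tested genes did. At an unadjusted p under 0.05 there were also 0 of 9, against 5.99% of all tested genes, and DESeq2 and limma-voom each called 0 of the 9 (0.579% and 0.101% of all tested genes). Their log2 fold changes lay between -0.10 and 0.16, with a median of 0.06 beside 0.00455 for all tested genes, and 6 of 9 were above 0, as were 50.7% of all tested genes. The 95% interval of the fold change stayed within 1.5-fold in either direction for 8 of the 9, all but Clec4a2. The interval stayed within that bound for 89.4% of the 1123 tested genes that averaged 100 CPM or more.

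**Figure D2:**
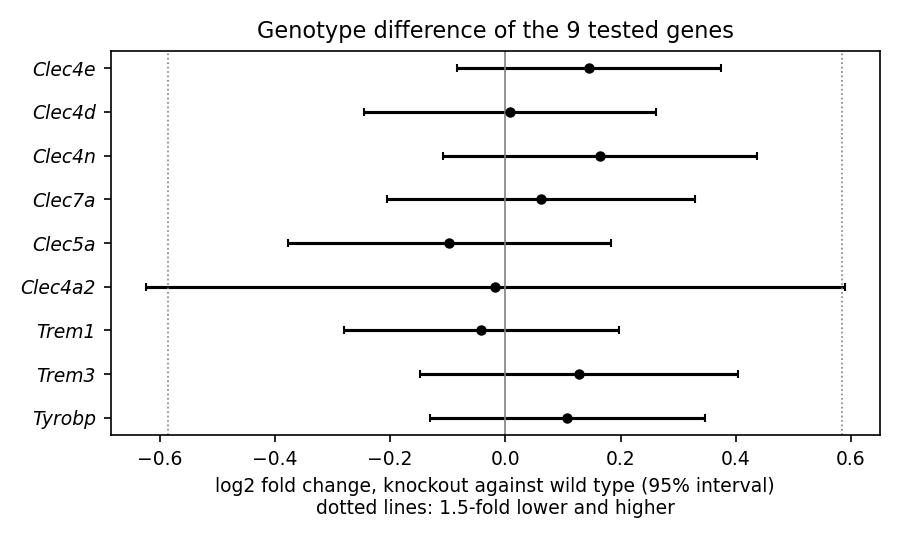
The log2 fold change of the 9 tested genes, knockout against wild type, with 95% intervals from edgeR; dotted lines mark 1.5-fold lower and higher. All 9 intervals include 0, and that of Clec4a2, the gene with the fewest counts, reaches past both dotted lines.

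Among the receptors that pair with Fcer1g, Clec4e, which binds mycobacterial glycolipid and the nuclear protein SAP130 from dead cells, had 5085, 5302 and 5850.3 CPM in wild-type libraries and 5923, 5798.5 and 6229 CPM in knockout libraries. The knockout libraries were at the upper end, and the groups overlapped through wild-type replicate 3 and knockout replicate 2. The means were 5413 ± 394 and 5984 ± 221 CPM (SD, n = 3 each), a log2 fold change of 0.14 (SE 0.10, 95% interval -0.08 to 0.37, edgeR adjusted p = 0.943).

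Clec4d, which forms receptor pairs with Clec4e, had 859, 912 and 857 CPM in wild-type libraries and 846, 803 and 993 CPM in knockout libraries. Its highest and lowest values were both knockout libraries, and the log2 fold change was 0.01 with an interval from -0.24 to 0.26. Clec4n, the receptor for fungal mannan, had 261, 250.2 and 224 CPM in wild-type libraries and 299, 242 and 284 CPM in knockout libraries. Knockout replicate 2 fell inside the wild-type range and the other knockout libraries above it (log2 fold change 0.16, interval -0.11 to 0.44).

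Clec7a, which signals without an adaptor, had 328, 302 and 275 CPM in wild-type libraries and 328, 282 and 336 CPM in knockout libraries, and the groups overlapped over most of their range. The log2 fold change was 0.06 (interval -0.21 to 0.33). Clec4a2 had 12.2, 8.05 and 7.72 CPM in wild-type libraries and 12.5, 6.91 and 8.12 CPM in knockout libraries. In each genotype replicate 1 was the highest, and the spread over the 6 libraries, a coefficient of variation of 26.3%, was the largest of the 9 tested genes. Its log2 fold change was -0.02 with an interval from -0.62 to 0.59, which reaches past 1.5-fold in both directions.

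Among the receptors that pair with Tyrobp, Trem1 had 1878, 1951 and 1732 CPM in wild-type libraries and 1942, 1676 and 1783 CPM in knockout libraries. It had the smallest coefficient of variation of the tested members, 6.24%, and a log2 fold change of -0.04 (SE 0.11, interval -0.28 to 0.20, edgeR adjusted p = 0.987). Trem3, an activating receptor of mouse myeloid cells, had 130.2, 151 and 128 CPM in wild-type libraries and 162, 135 and 151 CPM in knockout libraries, with overlapping groups (log2 fold change 0.13, interval -0.15 to 0.40). Clec5a, a receptor for flaviviruses, had 392, 473 and 466 CPM in wild-type libraries and 464, 371 and 409.8 CPM in knockout libraries. Its lowest value was a knockout library and its highest a wild-type library (log2 fold change -0.10, interval -0.38 to 0.18).

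Tyrobp, the adaptor, had 1117, 1164 and 1031 CPM in wild-type libraries and 1241, 1093 and 1234 CPM in knockout libraries. Knockout replicate 2 lay within the wild-type range and the other knockout libraries above it (log2 fold change 0.11, interval -0.13 to 0.35). Fcer1g, the other adaptor, was at 1931 ± 155 and 1971 ± 164 CPM (wild type, then knockout, as in all such pairs below; SD, n = 3 each; log2 fold change 0.03). Per length, Tyrobp reached 0.700 to 0.906 of the level of Fcer1g over the 6 libraries.

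Receptor transcripts were also set against adaptor transcripts per length, in 5 ratios formed after the values had been seen and given without a test. The sum of Trem1, Trem2, Trem3 and Clec5a over Tyrobp was 0.514, 0.531 and 0.536 in wild-type libraries and 0.501, 0.483 and 0.462 in knockout libraries, and the groups did not overlap. Trem1 over Trem3 was 4.78, 4.27 and 4.48 in wild-type libraries and 3.97, 4.13 and 3.91 in knockout libraries, also without overlap. Both ratios hold Trem1 in the numerator, so they are not separate observations. Among single tested genes, the groups did not overlap for 11.6%. The other 3 ratios overlapped between the groups. The sum of Clec4e, Clec4d and Clec4n over Fcer1g was 0.760 to 0.859 in wild-type libraries and 0.805 to 0.941 in knockout libraries, and Clec4e over Clec4d was 1.87 to 2.20 and 2.02 to 2.32. The members together made up 10383 ± 279 CPM in wild-type libraries and 11018 ± 539 CPM in knockout libraries. Of these counts, not per length, Clec4e gave 52.1% ± 2.81 and 54.3% ± 1.46 (SD, n = 3 each). Clec4e has the longest merged exons of the members, 4965 bases against 667 for Tyrobp. Per length Tyrobp was the higher, at 1719 against 1148 CPM per kilobase.

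Knockout replicate 2 was also low for the members. In it 9 of 9 tested members lay below the mean of their group, with a median deviation of -0.145 on the log2 scale beside 0.000153 for all tested genes. In wild-type replicate 3, 7 of 9 lay below their group mean (median -0.0963). Without knockout replicate 2 the log2 fold changes of Clec4n and Clec7a were 0.24 and 0.13, 7 of 9 were above 0, the median was 0.144 and 0 of 9 were called (edgeR).

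**Figure D3:**
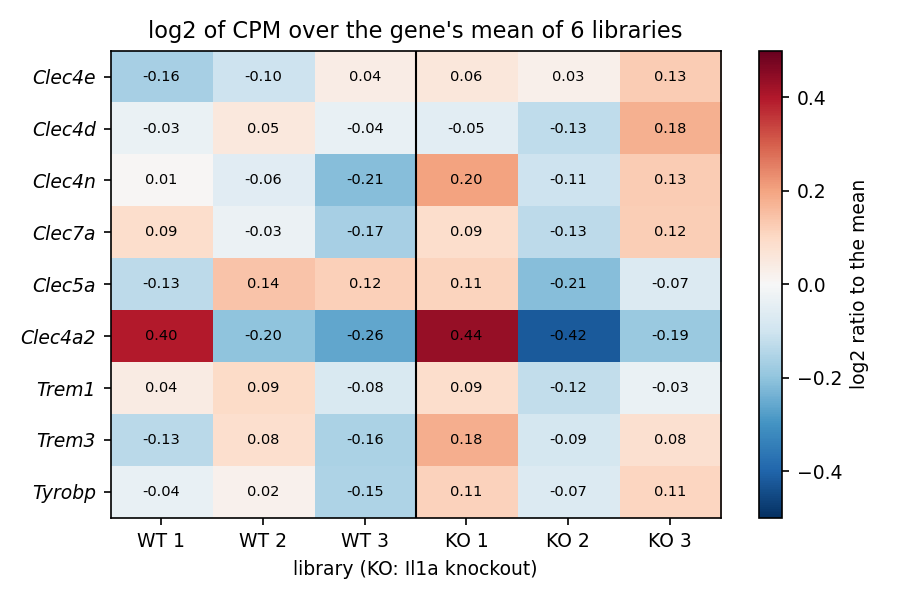
The log2 ratio of CPM in each library to the gene's mean over the 6 libraries, for the 9 tested genes; red is above and blue below the mean. In knockout replicate 2 all genes except Clec4e are below their mean over the 6 libraries, and Clec4a2 shows the widest spread.

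Trem2, a lipid-sensing receptor best known from macrophages and microglia, did not pass the expression filter. It had 2, 2 and 6 counts in wild-type libraries and 9, 28 and 18 counts in knockout libraries, or 0.0749, 0.0644 and 0.193 CPM against 0.283, 0.863 and 0.786 CPM. Every knockout library lay above every wild-type library, at levels where 3 counts correspond to 0.0925 to 0.131 CPM. The groups did not overlap for 11.6% of tested genes. The ratio of summed counts, 55 against 10 scaled to library size, was 5.61 with a 95% exact counting interval from 2.83 to 12.3, which covers counting error only. When all genes with a count were fitted, Trem2 had a log2 fold change of 2.47 (SE 1.04) and an edgeR adjusted p of 0.534, and was not called (0.766% of genes were called in that fit).

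The summed level of monocyte and macrophage markers was also higher in every knockout library than in every wild-type library, although 0 of 12 tested markers were called by edgeR. The 13 markers summed to 300 to 305 CPM in wild-type libraries and 370.5, 384 and 354 CPM in knockout replicates 1, 2 and 3, and 12 of the 13 had counts in every library. Most of that sum was Csf1r, at 178 ± 12.2 and 206 ± 21.7 CPM, and Adgre1, at 68.3 ± 13.3 and 79.4 ± 7.14 CPM (SD, n = 3 each). The complement gene C1qb, defining for macrophages and named with its values known, was at 0.973, 1.26 and 0.740 CPM in wild-type libraries and 2.11, 8.29 and 4.02 CPM in knockout libraries. The monocyte gene Ly6c2, named with its values known, was lower in every knockout library, at 32.6 ± 0.874 and 26.5 ± 4.20 CPM (SD, n = 3 each; edgeR adjusted p = 0.868). DESeq2 called C1qb and F13a1, where it called 0.579% of all tested genes. At an unadjusted p under 0.05 in edgeR, 7 of the 12 were higher, against 5.99% of all tested genes in either direction. Fcrls was at 0 in 5 of the 6 libraries. The part of these cells in the Trem2 values was not tested, and in bulk RNA more cells of a type and more RNA per cell cannot be told apart.

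**Figure D4:**
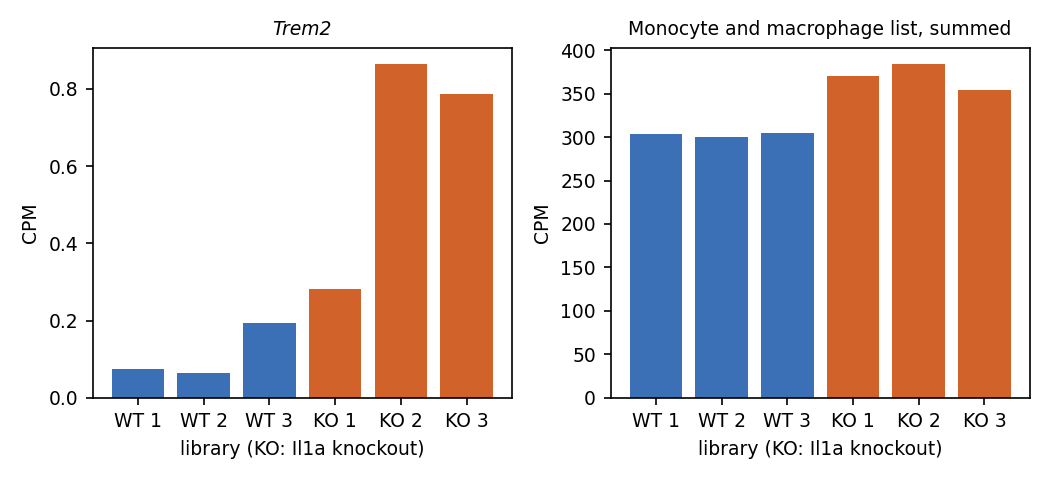
CPM of Trem2 (left) and the summed CPM of 13 monocyte and macrophage markers (right) in each library, blue for wild type and orange for Il1a knockout. Trem2 runs from 0.0644 to 0.863 CPM and the marker sum from 300 to 384 CPM, and in both panels the knockout libraries are above the wild-type libraries.

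Dendritic cell markers, some of which also carry C-type lectins, summed to 30.2 to 64.1 CPM in wild-type libraries and 40.0 to 91.1 CPM in knockout libraries, with H2-Ab1 at 26.9 ± 11.9 and 42.4 ± 17.7 CPM and H2-Eb1 at 14.4 ± 5.75 and 23.4 ± 9.86 CPM. Corneal epithelial markers summed to 19.4 to 138 and 25.7 to 112 CPM, led by Krt14 and Krt5, and stromal markers to 19.5 to 36.7 and 12.4 to 41.8 CPM, led by Dcn and Col1a1. Mast cell markers did not exceed 0.187 CPM, and the erythroid and platelet sum was 5.61 to 32.0 and 3.55 to 38.9 CPM. Summed over the 6 libraries, the macrophage markers came to 0.902% of the neutrophil markers, S100a9 and S100a8 being the most abundant of those. The part of these cells in the values of the other members was not tested.

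The genes lie in 2 clusters and 3 single places on GRCm38, none of them on chromosome 2, which carries Il1a. Clec4a2 (ENSMUSG00000030148, 123106428 to 123143999), Clec4n (ENSMUSG00000023349, 123229843 to 123247021), Clec4d (ENSMUSG00000030144, 123262111 to 123275265) and Clec4e (ENSMUSG00000030142, 123281789 to 123289870, minus strand) share 183 kb of chromosome 6. Trem1 (ENSMUSG00000042265, 48232768 to 48246924), Trem3 (ENSMUSG00000041754, 48247777 to 48258841) and Trem2 (ENSMUSG00000023992, 48346401 to 48354147) share 121 kb of chromosome 17. Clec7a (ENSMUSG00000079293, 129461591 to 129472779) and Clec5a (ENSMUSG00000029915, 40574894 to 40585821) lie elsewhere on chromosome 6, and Tyrobp (ENSMUSG00000030579, 30413760 to 30417585) on chromosome 7.

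The level per length differed widely within both clusters. From the start of the Clec4 cluster, Clec4a2 was at 3.16, Clec4b2 at 1.02, Clec4n at 183, Clec4d at 549 and Clec4e at 1148 CPM per kilobase, and Clec4b1, just outside it, had 7 counts over the 6 libraries. Along the Trem cluster, Trem1 was at 610, Trem3 at 144, Treml4 at 36.6, Treml2 at 2.92, the protein-coding gene B430306N03Rik at 13.8 and Trem2 at 0.0763 CPM per kilobase, in order of position, and Treml1 had 1 count over the 6 libraries. Treml4, a TREM-like receptor gene, was at 62.6, 61.5 and 65.0 CPM in wild-type libraries and 88.9, 71.0 and 89.8 CPM in knockout libraries. Its groups did not overlap, as for 11.6% of all tested genes (log2 fold change 0.40, interval 0.11 to 0.69), and it was not called (edgeR adjusted p = 0.635).

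**Figure D5:**
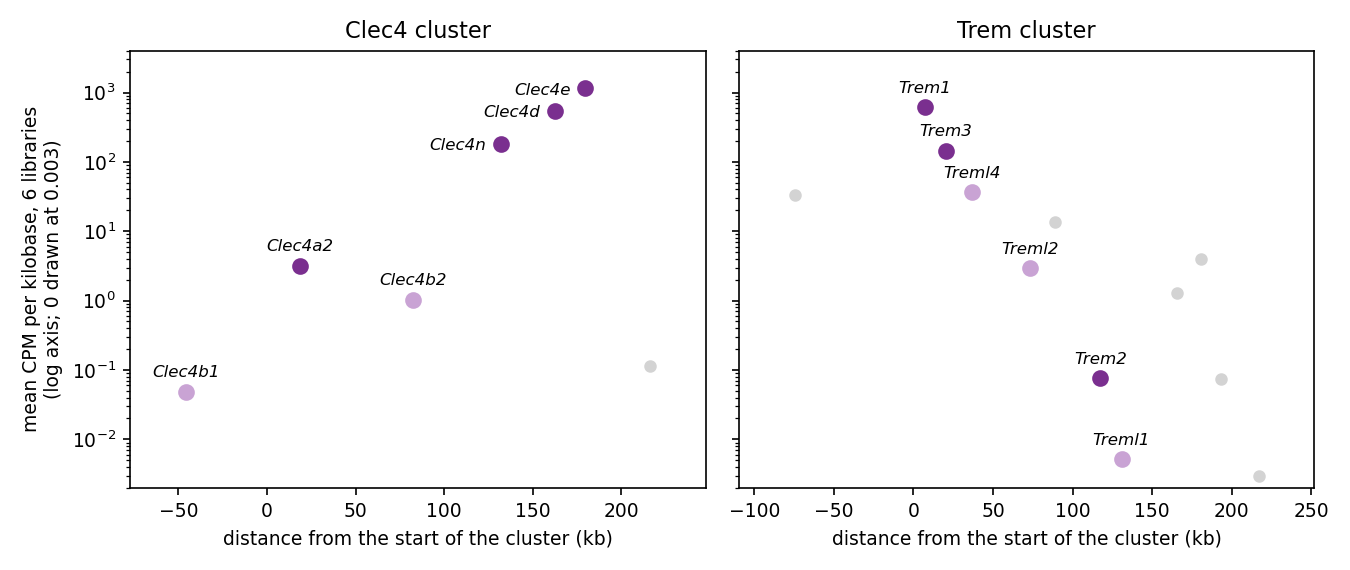
Mean CPM per kilobase over the 6 libraries (log axis, 0 drawn at 0.003) of protein-coding genes against distance from the start of the Clec4 cluster (left) and the Trem cluster (right); dark purple marks the described genes, light purple other listed receptor genes and grey other genes. Clec4e at one end of its cluster and Trem1 at the start of the other are the highest.

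Sharing of reads with other genes was checked by sequence and position. None of the 10 had a copy in another gene at 90% identity over 50% of its transcript, the nearest being Clec4a4 to Clec4a2 at 84.6% over 31.6%. An annotated pseudogene on the opposite strand lies in an intron of Trem1, and it had 16.4 to 23.9 CPM. Gm44132 overlaps 151 bases of Clec4a2 and did not exceed 0.0322 CPM. Where both strand columns were summed in place of the unstranded column, the log2 fold changes of the 9 kept their signs.

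Below the receptors, the signalling list held Fcer1g, Syk, the Src-family kinases, the CARD9 complex, phosphatases and their partners. Of 26 tested genes of 29, 0 were called by edgeR, DESeq2 or limma-voom. At an unadjusted p under 0.05 in edgeR (5.99% of all tested genes), 1 was higher and 1 lower. The median log2 fold change was -0.06. Its genes with the highest CPM were Pik3ap1, Fcer1g, Syk and Lcp2, and per length Fcer1g stood highest, at 2232 CPM per kilobase. Pik3ap1, a PI3-kinase adaptor gene, was at 2066 ± 513 and 1936 ± 155 CPM, and Syk at 1023 ± 23.9 and 993 ± 76.5 CPM. Lcp2, the gene of the adaptor SLP-76, was at 946 ± 134 and 980 ± 73.0 CPM (SD, n = 3 each).

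The CARD9 complex and Hcst are described by their roles, after their values were seen. Card9 itself was low, at 5.20, 2.58 and 2.19 CPM in wild-type libraries and 2.45, 2.13 and 4.15 CPM in knockout libraries. Bcl10 was at 299.5 ± 40.9 and 284.5 ± 11.98 CPM. Malt1, the protease of the complex, was at 258, 238 and 321 CPM in wild-type libraries and 319, 457 and 412 CPM in knockout libraries, and overlapped between the groups through wild-type replicate 3. Its log2 fold change was 0.54 (interval 0.18 to 0.89, edgeR adjusted p = 0.568). Hcst, which encodes the adaptor DAP10, was at 27.3, 25.5 and 24.3 CPM in wild-type libraries and 20.3, 15.3 and 22.1 CPM in knockout libraries. Its groups did not overlap, as for 11.6% of all tested genes (log2 fold change -0.42, edgeR adjusted p = 0.786).

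Among other C-type lectin genes, 14 of 26 were tested and 0 called by the same 3 tools, with a median log2 fold change of 0.31. The most abundant was Olr1, the oxidised LDL receptor gene, at 338 ± 40.2 and 391 ± 27.0 CPM. Cd302 was at 16.6 ± 1.60 and 20.2 ± 0.168 CPM, and Clec12a, an inhibitory receptor gene of neutrophils, at 8.65 ± 1.74 and 8.53 ± 1.36 CPM. Ly75, an endocytic receptor gene also called DEC-205, was at 12.6 ± 3.69 and 22.4 ± 4.78 CPM (log2 fold change 0.83, edgeR adjusted p = 0.568), and the macrophage mannose receptor gene Mrc1, named with its values known, at 0.413 ± 0.355 and 2.76 ± 2.43 CPM. These 2 genes were the ones at an unadjusted p under 0.05 in edgeR (5.99% of all tested genes), both higher. Mrc1 is also on the macrophage marker list.

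Of the other TREM-like genes and Tyrobp partners, 9 of 13 were tested and 0 were called by any of the 3 tools. Treml4 alone had an unadjusted p under 0.05 in edgeR, as did 5.99% of all tested genes. The median was -0.00346. Sirpb1b was at 59.4 ± 13.1 and 58.8 ± 11.4 CPM, Pilrb1 at 58.5 ± 0.332 and 56.5 ± 11.6 CPM and Cd300lb at 59.5 ± 9.70 and 52.1 ± 10.5 CPM. Of 5 ligand genes 0 were called by the same tools. At an unadjusted p under 0.05 there were 0 in edgeR and 1 in DESeq2. Pglyrp1, whose product activates TREM1, was at 85.0 ± 16.7 and 81.8 ± 7.11 CPM. Sap130, the ligand of Mincle, was at 13.1 ± 1.36 and 12.9 ± 1.00 CPM, Hmgb1 at 30.8 ± 1.496 and 27.9 ± 7.59 CPM, and Apoe, a ligand of TREM2 and a macrophage marker, at 14.9 ± 2.83 and 22.9 ± 9.91 CPM (SD, n = 3 each).

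Of the inflammatory genes known to be induced through Syk and CARD9, 0 of 16 tested were called by edgeR, DESeq2 or limma-voom. Over the 6 libraries, their mean levels ran from 1.676 CPM per kilobase for Csf2 to 22800 CPM per kilobase for Ccl4. The chemokine gene Cxcl2 was at 24090 ± 1985 and 23090 ± 4535 CPM, Il1b at 22360 ± 1285 and 20220 ± 2390, Ccl4 at 16190 ± 2260 and 13910 ± 1634, and Ccl3 at 11140 ± 1667 and 10870 ± 2106 CPM (SD, n = 3 each). At an unadjusted p under 0.05 in edgeR (5.99% of all tested genes), 3 were higher, all named after their values were seen: Nos2 (log2 fold change 0.52), Il10 (0.46) and Il6 (1.06).

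For the tested members with the largest and smallest spread, the genes nearest in pattern over the 6 libraries were sought among 5358 genes that averaged 5 CPM or more. Likeness was the root mean square difference of centred log2 CPM. For Clec4a2, whose log2 CPM ranged over 0.848, these were Rin3 at 0.0663, Plcg2, which encodes a phospholipase that acts below ITAM receptors, at 0.0823, and Tor4a at 0.0845, beside a median of 0.376 over all genes compared. For Trem1 they were Nelfb at 0.0284, Adam8 at 0.0313 and Gsdme at 0.0316, beside a median of 0.208. Trem1 varied little, so a small difference for it mostly describes genes that varied little too. For both members the genes were picked as the nearest over only 6 libraries, and a link between them was not tested.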

How the data were processed

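The files deposited by the authors hold raw gene counts in whole numbers, once without regard to strand and once for each read strand. Per the labels' protocols, the kit was SMART-Seq v4, made for low input. STAR 2.7.8a, Trimmomatic 0.39 and FastQC 0.11.9 are listed in the submitters' processing notes, as are builds GRCm38 and mm10. The annotation release is not given in the sources used here. Symbols, positions and exon lengths came from GENCODE M21 (54723 of 54838 genes matched).

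Unstranded counts of all 6 libraries were filtered with edgeR 4.0.16 (filterByExpr by group, 11924 genes), normalized by TMM and compared between knockout and wild type by its robust quasi-likelihood test in R 4.3.3 with limma 3.58.1. Benjamini-Hochberg adjustment ran over all tested genes, with a threshold of 0.05. Log2 CPM used a prior count of 3. DESeq2 1.42.0 and limma-voom were alternatives, as were other scalings and filters, a replicate block, the strand columns and each library left out. Transcripts were searched with blastn 2.17.0. The procedure was checked on simulated counts with 200 genes changed by 1.5-fold or more, all averaging 5 CPM or more. That check does not cover smaller differences or levels like that of Trem2. Reads carry no molecular tags, so counting intervals cover counting error only.

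The members and lists were chosen with earlier results of these data known. Named are all members, Il1a, the 4 genes per list and 2 per marker list with the highest mean CPM, called genes and listed neighbours. Also named are the 3 genes nearest in pattern to the tested members with the largest and smallest spread. Other genes are said to be named after their values were seen. Of 6 gene lists and 9 marker lists, all entries but Treml6 were matched. Figures used matplotlib 3.10.9.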

Additional observations from a re-analysis of the deposited data

How the results depend on the processing

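Over 15 alternatives, 0 of the 9 tested members were called in any fit, and 124 of 135 member values kept their direction. The 11 that turned belonged to Clec4d, Clec7a, Clec4a2 and Trem1. For Clec4d the log2 fold change was -0.0019 with no filter and -0.00079 with limma-voom, and it ranged from -0.0878 to 0.0606 when single libraries were left out. For Clec7a that range was -0.0026 to 0.13 and for Clec4a2 -0.315 to 0.205, the highest without wild-type replicate 1. With library size alone Clec4a2 was at 0.0341 and Trem1 at 0.0143. That scaling moved the median of all genes to 0.0604, and Clec4e had its lowest p there (unadjusted p = 0.0304, edgeR). With no filter (24151 genes, 185 called), edgeR called 1 signalling gene (Malt1), 3 other C-type lectin genes (Ly75, Mrc1 and Mrc2), 1 ligand gene (Clu) and 2 induced genes (Il6 and Il12b). Of these, Mrc1, Mrc2, Il12b and Clu had most of their counts in 1 library. Mrc1 had 3, 10 and 25 counts in wild-type and 10, 168 and 64 in knockout libraries. In the same order, Mrc2 had 0, 0 and 0, then 4, 55 and 0. Il12b had 0, 1 and 1, then 9, 64 and 0, and Clu had 17, 67 and 365, then 43, 91 and 28. In these lists the other alternatives called 0. The filter at 5 CPM gave 21 calls over all genes and DESeq2 69, none of them a member.

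The replicate number was also fitted as a replicate block, which called 20 genes in all against 12 without it, and 0 members; Il1a was at -10.55. Deviations of same-numbered libraries had correlations of 0.14, 0.0572 and 0.00338 across genes, and wild-type replicate 3 correlated best with knockout replicate 2 (0.145). The labels state no pairing, so the main fit held no block. Correlations over 3 libraries per group cannot exclude pairing. Depth limits Trem2, at 65 counts in all, and Clec4a2.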

Other observations

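Beside the listed receptors, 2 other protein-coding genes in or beside the Trem cluster, singled out after their values were seen, were measured well above Trem2. Per length A530064D06Rik was at 33.8 and B430306N03Rik at 13.8 CPM per kilobase. Nfya at 1.305 and Oard1 at 3.94 CPM per kilobase, also beside the cluster, were above Trem2 as well. The wild-type and knockout means of A530064D06Rik were 196 ± 24.8 and 201 ± 14.7 CPM, and those of B430306N03Rik were 71.7 ± 20.9 and 73.3 ± 20.2 CPM (SD, n = 3 each). Neither was called (edgeR adjusted p = 0.989 for both).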
